A study of Drosophila melanogaster with 11 samples.

Results

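Chromosome-scale contacts were taken as all contacts within one chromosome arm whose 2 ends lay 100 kb or more apart. Contacts had been counted in separation bins, 4 to each factor of 10 in distance, so that each bin ended at 1.78 times its start. Every bin that started at 100 kb or above was included and its 4 read orientations were summed, which gave 17 of 38 bins. Of these 17, 11 could hold contacts at the arm lengths of the fly, and 10 of them on more than one sequence. The bin from 31.6 to 56.2 Mb was possible only on 3R, and the 6 bins beyond it, the open last bin included, held 0 contacts because no arm is long enough.

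MicroC, which cuts crosslinked chromatin with micrococcal nuclease and ligates fragments that lie close together, was carried out on whole *Drosophila melanogaster* embryos at stage 14 (12–16 hr). In each line *nhomie*, the boundary element at one end of the *even skipped* (*eve*) domain on 2R, had been replaced. The replacement was *homie*, the boundary from the other end (*homie forward*, 3 libraries), *λ DNA* from phage (3 libraries), *nhomie* in inverted orientation (*nhomie reverse*, 3 libraries) or *nhomie* in its own orientation (*nhomie forward*, 2 libraries), the last being the control that went through the same replacement. Each library was made from many pooled embryos of mixed tissues and both sexes, so the values are averages over cell types. The replaced element covers a very small part of 2R, and the comparison asks whether contacts on the scale of whole arms were alike in the 4 lines.

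Contact frequency along a chromosome falls with genomic separation, since nearby segments of a polymer meet more often than distant ones. Boundary elements and the topologically associating domains (TADs) between them act mostly at shorter range, although the authors also describe loops formed by pairing of boundaries megabases apart. Contacts at much larger separations may also reflect how domains of like activity associate and how the arm as a whole is folded. In fly embryos chromosomes often keep the Rabl arrangement, with centromeres toward one side of the nucleus, telomeres toward the other and the arms side by side. Homologous chromosomes are paired in flies, and contacts between homologs could not be told from contacts within one of them.

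Sequencing gave 87012109 to 472473246 unique contacts per library, and 24.7–59.1% of these were cis contacts from 1 kb up, the denominator used below. Replicate 1 of *homie forward*, of *λ DNA* and of *nhomie reverse* stood apart from the other libraries: inward-facing pairs under 1 kb made up 50.9%, 45.1% and 55.4% of their unique contacts, against 19.8–34.5% in the other 8 libraries. The trans density, defined as contacts per 1 Mb × 1 Mb between large arms of different chromosomes and given per 1000000 cis contacts from 1 kb up, was 38.5, 34.2 and 74.2 in these 3 libraries and 18.1–30.1 in the other 8. Replicates 2 and 3 were nearly the same library in composition. In the far bins, split by orientation, they differed by no more than sampling noise in *homie forward* (chi-square test, p = 0.593) and *λ DNA* (p = 0.247) and by little more in *nhomie reverse* (p = 0.0374), while replicates 1 and 2 of these genotypes differed by 165 to 14895 times the noise (chi-square per degree of freedom). Replicates 2 and 3 were therefore averaged and counted as 1 sample, which left n = 2 per genotype. Both *nhomie forward* libraries were also close to each other, with 0.0631% of contacts to move between classes to make them equal, against 0.0660–0.0905% for replicates 2 and 3, although at their greater depth they differed by 2.61 times the noise. Were they also counted as 1 sample, the control would have n = 1 and no SD, so its small SDs may not measure the spread between separate embryo collections. The p-values below measure the spread between such samples, except those with 11 libraries, in which replicates 2 and 3 count as separate samples. All these p-values share the limit of the SDs, since the *nhomie forward* libraries enter as 2 samples. In the other genotypes the spread with n = 2 is that of replicate 1 from the average of replicates 2 and 3.

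Contacts at 100 kb or more numbered 10780545, 17231585 and 12509627 in *homie forward*, 11603128, 33241247 and 27425986 in *λ DNA*, 19617991, 41313310 and 32987528 in *nhomie reverse*, and 67324227 and 95066092 in *nhomie forward*. At this depth counting error was negligible, with a 95% Wilson interval of at most 0.0338 percentage points for the share of any library. Intervals cover counting error only.

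In all 4 genotypes a large minority of cis contacts from 1 kb up, 30.4–44.3%, spanned at least 100 kb. The share was 35.1%, 30.4% and 30.4% in replicates 1, 2 and 3 of *homie forward*. In *λ DNA* it was 35.6%, 33.3% and 33.3%, and in *nhomie reverse* 44.3%, 35.6% and 35.6%. The *nhomie forward* libraries held 34.0% and 34.1%. *nhomie reverse* replicate 1 was the highest and *homie forward* replicates 2 and 3 were the lowest, and the *nhomie forward* libraries lay between the replicates of both *homie forward* and *λ DNA*. Averages were 32.8% ± 3.32 in *homie forward*, 34.4% ± 1.65 in *λ DNA*, 39.97% ± 6.18 in *nhomie reverse* and 34.0% ± 0.0672 in *nhomie forward* (SD, n = 2 each). The genotypes did not differ by more than this spread (exact permutation test of the F ratio, two-sided, p = 0.276, adjusted p = 0.331 over 6 measures). Without replicate 1 of the 3 other genotypes, *nhomie reverse* stood at 35.6% and *nhomie forward* at 34.0–34.1%, so 1 library carried most of the difference of 5.96 percentage points between their averages.

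**Figure D1:**
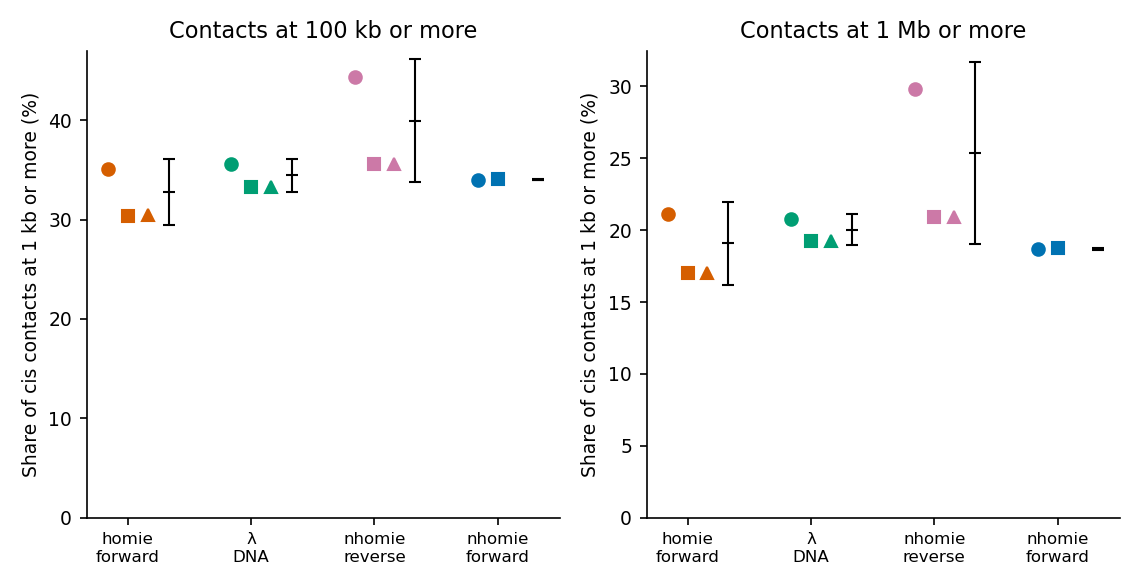
Share of cis contacts from 1 kb up (%) that spanned at least 100 kb (left) or at least 1 Mb (right), by genotype. Circles, squares and triangles are replicates 1, 2 and 3, and black bars are the mean ± SD with replicates 2 and 3 counted as 1 sample (n = 2); *nhomie reverse* replicate 1, at 44.3% and 29.8%, lies above every other library.

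Most of these contacts spanned 1 Mb or more, 54.9–67.3% over all 11 libraries and 54.9–60.2% without *nhomie reverse* replicate 1. The middle contact by separation fell in the bin from 1 to 1.78 Mb in 9 libraries and from 1.78 to 3.16 Mb in the other two, *homie forward* replicate 1 and *nhomie reverse* replicate 1. As a share of cis contacts from 1 kb up, contacts at 1 Mb or more made up 21.1%, 17.0% and 17.0% in *homie forward*, 20.8%, 19.2% and 19.3% in *λ DNA*, 29.8%, 20.9% and 20.9% in *nhomie reverse*, and 18.7% in both *nhomie forward* libraries. Every library of *λ DNA* and *nhomie reverse* lay above both *nhomie forward* libraries, whereas *homie forward* lay on both sides of them. With the contacts that the trans density would give subtracted, as described below for the far share, these shares were 15.8%, 14.2% and 14.2% in *homie forward*, 16.1%, 15.5% and 15.5% in *λ DNA*, 20.2%, 16.8% and 16.8% in *nhomie reverse*, and 16.2% in both *nhomie forward* libraries. The order then turned for *λ DNA*, whose 3 libraries, like those of *homie forward*, lay below both *nhomie forward* libraries, and *nhomie reverse* alone lay above them. The averages of 19.1% ± 2.89 in *homie forward*, 20.02% ± 1.09 in *λ DNA*, 25.4% ± 6.32 in *nhomie reverse* and 18.7% ± 0.0482 in *nhomie forward* (SD, n = 2 each), did not differ beyond the spread (exact permutation test, p = 0.333, adjusted p = 0.333). Contacts at 10 Mb or more, which only the 5 large arms can hold, made up 3.01–7.51%, and 3.01–4.47% without *nhomie reverse* replicate 1.

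The number of contacts per bin did not fall steadily with separation. Between 100 kb and 10 Mb the smallest share was in the bin from 562 kb to 1 Mb in 10 of 11 libraries and from 316 to 562 kb in *nhomie reverse* replicate 1. From there the shares were larger again, up to a second high point in the bin from 5.62 to 10 Mb in 8 libraries and from 3.16 to 5.62 Mb in 3. This second high point arises on bins that widen in proportion to distance, and raw contacts per bp of bin give the opposite picture: in the first bin they were 18.4, 32.9 and 23.9 per bp in *homie forward*, 20.7, 59.8 and 49.4 in *λ DNA*, 25.0, 72.2 and 57.6 in *nhomie reverse*, and 133.0 and 187.5 in *nhomie forward*, and these raw values also follow library depth. Within each of the 10 bins on several sequences the 4 read orientations held 24.8–25.2% of contacts each, so no orientation was over-represented at these distances in any library.

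**Figure D2:**
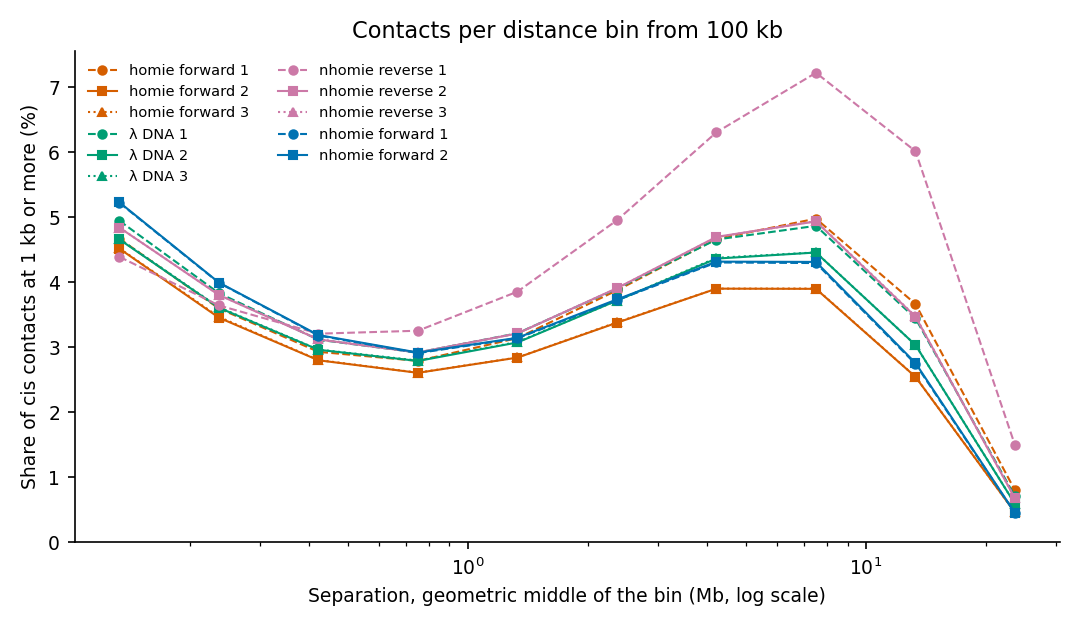
Share of cis contacts from 1 kb up (%) in each of the 10 separation bins from 100 kb that lie on more than one sequence, against separation (Mb, log scale). Each line is 1 library; all dip below 1 Mb and have a second high point between 3.16 and 10 Mb, and *nhomie reverse* replicate 1 lies above the other 10 libraries in 8 of 10 bins.

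Genotypes were then compared bin by bin. Over all 18 bins from 1 kb, 0 were called after adjustment (0%), and so 0 of the 10 far bins, by the exact permutation test with 8 samples. The smallest p that this test can give is 0.00952, so 1 bin that differed alone could not pass after adjustment over 18 bins. The 0 calls therefore do not show that the bins were alike. Without adjustment the test called 1 of 18 (5.56%), the bin from 316 to 562 kb (exact p = 0.0381, adjusted p = 0.354). With the 11 libraries taken singly, 0 of 18 were called after adjustment (0%) and 6 of 18 without it (33.3%), 4 of them among the 10 far bins. The shares in *nhomie forward* exceeded those of the other 9 libraries in only the 2 bins from 100 to 316 kb, 2 of 10 against 6 of 18 bins from 1 kb (33.3%).

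Shares do not take account of how many pairs of positions exist at a given distance, which decreases with separation and ends at the arm length. Contacts were therefore divided by the pairs of positions that the sequence lengths allow in each bin, and this density was set against the trans density of the same library, so that 1 means as frequent as contacts between different chromosomes. The allowed pairs differed by at most 0.000211% between the 4 edited genomes.

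In the first bin, from 100 to 178 kb, contacts were 114, 208 and 207 times as dense as trans contacts in *homie forward*. The ratio was 136, 161 and 161 in *λ DNA*, and 55.7, 152 and 151 in *nhomie reverse*. In *nhomie forward* it was 272 and 269, above every other library. At 1 to 1.78 Mb the density was 8.19, 13.95 and 13.9 times trans in *homie forward*, 9.45, 11.3 and 11.3 in *λ DNA*, 5.22, 10.7 and 10.7 in *nhomie reverse*, and 17.5 and 17.3 in *nhomie forward*. At 10 to 17.8 Mb it was 1.94, 2.54 and 2.53 in *homie forward*, 2.05, 2.27 and 2.26 in *λ DNA*, 1.65, 2.35 and 2.35 in *nhomie reverse*, and 3.10 and 3.07 in *nhomie forward*. Contacts 10 Mb apart on one arm were thus still more frequent than contacts between chromosomes in all 11 libraries.

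**Figure D3:**
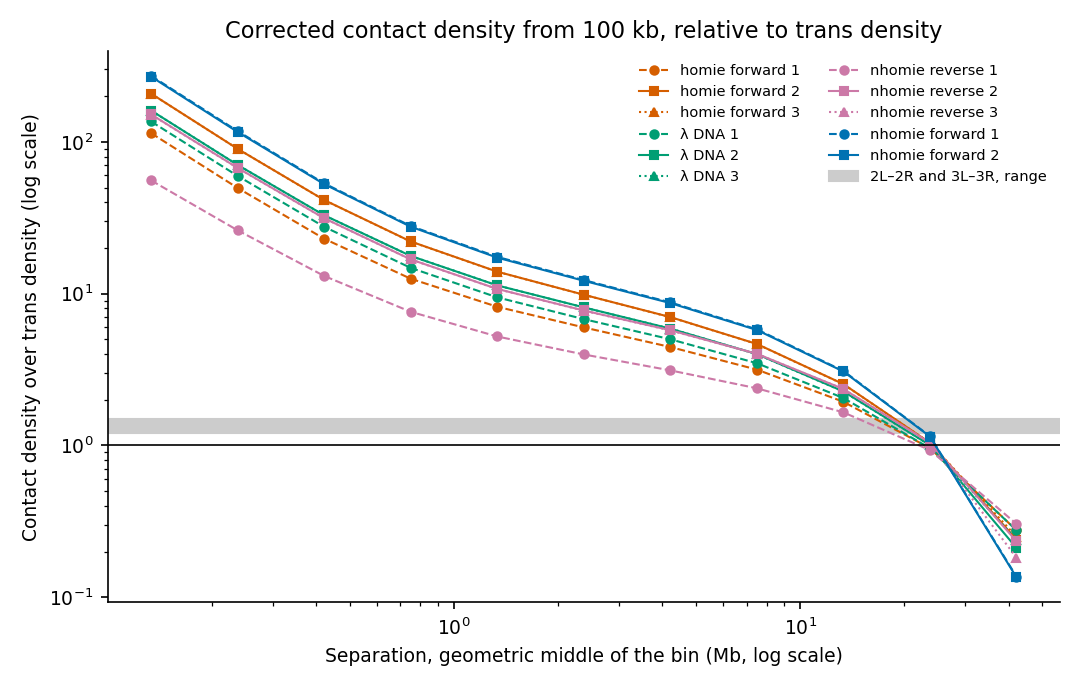
Contact density corrected for allowed position pairs, as a ratio to the trans density of the same library (log scale), against separation (Mb, log scale). Each line is 1 library, the black line is the trans density and the grey band is the range of the density between the arms of chromosomes 2 and 3 (1.21–1.50); both *nhomie forward* libraries lie highest up to 31.6 Mb and lowest in the last bin, which only 3R can hold.

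Near the full length of an arm the contact density came close to the trans density. From 17.8 to 31.6 Mb the ratio was 0.959, 1.04 and 1.04 in *homie forward*, 0.958, 1.004 and 1.004 in *λ DNA*, 0.931, 1.04 and 1.04 in *nhomie reverse*, and 1.15 and 1.14 in *nhomie forward*. The last bin, from 31.6 Mb up to the end of 3R, joins the outermost stretches of that arm to each other and held only 34, 29 and 22 contacts in *homie forward*, 32, 60 and 56 in *λ DNA*, 104, 85 and 53 in *nhomie reverse*, and 51 and 72 in *nhomie forward*. Its density was below the trans density in every library, at 0.182–0.304 times trans in the other 9 libraries and 0.137 and 0.135 in *nhomie forward*. The allowed pairs come from sequence length alone and were not corrected for positions where reads could not be mapped well. Whether the ends of 3R met less often than different chromosomes therefore cannot be read from this ratio. The exact 95% Poisson intervals were 0.102–0.180 and 0.106–0.170 in *nhomie forward*. Both overlapped those of *homie forward* replicates 2 (0.161–0.345) and 3 (0.157–0.379), *λ DNA* replicate 2 (0.161–0.272) and *nhomie reverse* replicate 3 (0.137–0.238). Overlap of intervals does not decide whether libraries differ, and differences in this bin were not tested.

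Contacts between the left and right arms of chromosomes 2 and 3, which are joined at the centromere but counted as separate sequences, gave a second scale. They were 1.21–1.40 times as dense as trans contacts in the other 9 libraries and 1.50 times in *nhomie forward*, with 1.25–1.63 for 2L–2R and 1.18–1.42 for 3L–3R over all 11 libraries. Single pairs of arms on different chromosomes ranged from 0.867 to 1.14 times their mean. Contacts at 10 to 17.8 Mb on one arm were 1.37–2.06 times as dense as those between arms of one chromosome. At 17.8 to 31.6 Mb contacts on one arm were less dense than between arms, 0.738–0.773 times, in all 11 libraries. In this bin *nhomie forward* (0.767 and 0.765) lay within the range of the other genotypes.

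The 2 *nhomie forward* libraries had a higher density over trans than the other 9 libraries in 10 of 10 bins from 100 kb to 31.6 Mb. The same held in 16 of 18 bins from 1 kb (88.9%), so this order was not particular to large separations. On the log2 scale the first bin averaged 7.27 ± 0.611 in *homie forward*, 7.21 ± 0.170 in *λ DNA*, 6.52 ± 1.02 in *nhomie reverse* and 8.08 ± 0.0126 in *nhomie forward* (SD, n = 2 each). All bins from 10 Mb together averaged 0.88 ± 0.241 in *homie forward*, 0.85 ± 0.0919 in *λ DNA*, 0.74 ± 0.316 in *nhomie reverse* and 1.32 ± 0.00794 in *nhomie forward*. Neither level differed between genotypes beyond the spread of the samples (exact permutation test, p = 0.267 and p = 0.181, adjusted p = 0.331 for both). The differences from *nhomie forward* in the first bin were -0.81 for *homie forward*, -0.87 for *λ DNA* and -1.56 for *nhomie reverse*, and beyond 10 Mb they were smaller, -0.43, -0.47 and -0.58.

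The ratio rests on the trans density, which was itself 18.1 and 18.3 in *nhomie forward*, below that of every other library (20.5–74.2 per 1000000 cis contacts from 1 kb up). Applied to all allowed pairs of positions from 100 kb, the trans density would give 19.5%, 12.0% and 12.0% of the far contacts in *homie forward*, 17.1%, 14.6% and 14.6% in *λ DNA*, 29.7%, 15.0% and 15.0% in *nhomie reverse*, and 9.45% and 9.55% in *nhomie forward*. With this number of contacts subtracted from every separation, the far share was 30.4%, 27.8% and 27.8% in *homie forward*, 31.5%, 29.9% and 29.9% in *λ DNA*, 35.9%, 32.0% and 32.0% in *nhomie reverse*, and 31.8% in both *nhomie forward* libraries. The range over the 11 libraries narrowed to 27.8–35.9% from 30.4–44.3%, and *nhomie reverse* replicate 1 remained the highest. The part of the trans density in the differences between genotypes was not tested.

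The decay was steep, then shallow, then steep again in all 11 libraries. Slopes are those of log10 density on log10 separation, so that -1 means a density inversely proportional to distance. Between neighbouring bins the slope was -1.46 to -1.31 at the first step, across 178 kb, and -0.81 to -0.65 across 1 Mb. It was shallowest across 3.16 Mb in 11 of 11 libraries, at -0.59 to -0.42. Beyond that the decay steepened again, to -1.095 to -0.63 across 10 Mb and -1.72 to -0.996 across 17.8 Mb. Without correction for allowed pairs the last of these would be -4.14 to -3.42, since few pairs of positions are left near the ends of the arms.

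**Figure D4:**
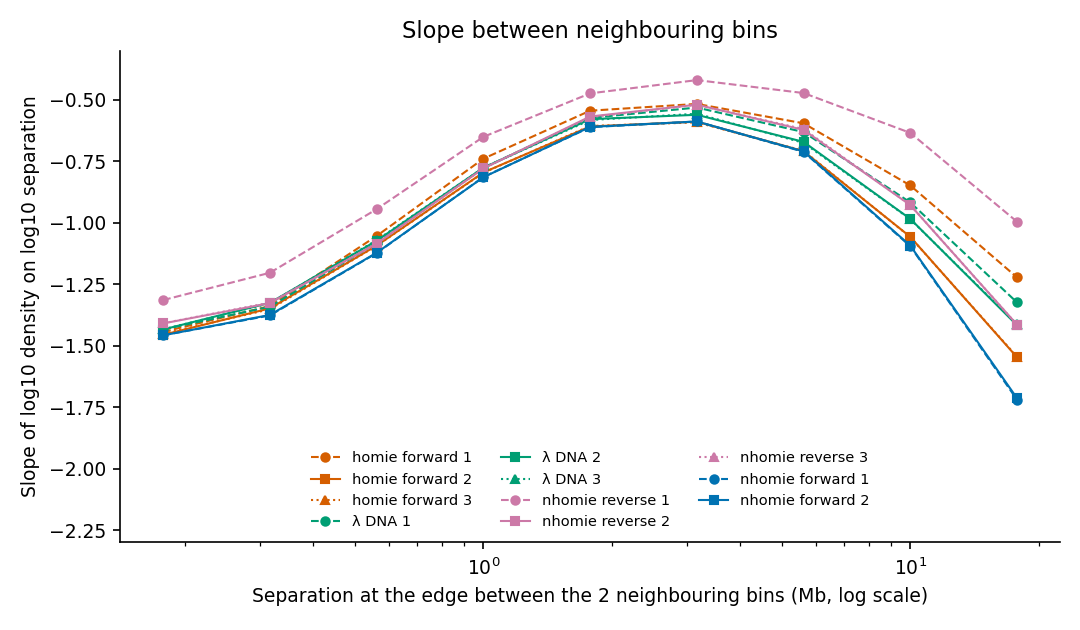
Slope of log10 density on log10 separation between each 2 neighbouring bins, against the edge between them (Mb, log scale); each line is 1 library. All lines peak across 3.16 Mb (-0.59 to -0.42), and *nhomie reverse* replicate 1 is the shallowest throughout.

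Over the 4 bins from 100 kb to 1 Mb the slope was -1.28, -1.30 and -1.30 in *homie forward*, -1.29, -1.28 and -1.28 in *λ DNA*, -1.16, -1.28 and -1.28 in *nhomie reverse*, and -1.32 in both *nhomie forward* libraries. The control was the steepest and did not overlap the other 9 libraries. Averages were -1.29 ± 0.0136 in *homie forward*, -1.29 ± 0.00655 in *λ DNA*, -1.22 ± 0.0845 in *nhomie reverse* and -1.32 ± 0.000768 in *nhomie forward* (SD, n = 2 each). This was the measure with the lowest p of the 6, and it did not pass after adjustment (exact permutation test, p = 0.0190, adjusted p = 0.114). With the 11 libraries taken singly, the exact p was 0.0647. Without *nhomie reverse* replicate 1 it was 0.0857, and without either *nhomie forward* library it was 0.181 or 0.171.

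From 1 to 10 Mb the slope was -0.55, -0.63 and -0.63 in *homie forward*, -0.57, -0.60 and -0.60 in *λ DNA*, -0.45, -0.56 and -0.56 in *nhomie reverse*, and -0.63 in both *nhomie forward* libraries. Replicates 2 and 3 of *homie forward* were thus almost as steep as *nhomie forward*, and *nhomie reverse* lay above both in every replicate. The averages of -0.59 ± 0.0581 in *homie forward*, -0.59 ± 0.0181 in *λ DNA*, -0.51 ± 0.0800 in *nhomie reverse* and -0.63 ± 0.000580 in *nhomie forward* (SD, n = 2 each), did not differ beyond the spread (exact permutation test, p = 0.238, adjusted p = 0.331). Both *nhomie forward* libraries were steeper than the other 9 at 8 of 9 single steps from 100 kb, the exception being the step across 3.16 Mb. Of the steps from 1 kb this held at 8 of 17 (47.1%), so that every such step lay at 100 kb or above. Some margins were very small. Across 5.62 Mb the nearer *nhomie forward* library was at -0.7091 and *homie forward* replicate 2 at -0.7087, and across 1.78 Mb they were at -0.6099 and -0.6081. Other margins were larger, as across 10 Mb, with -1.093 in *nhomie forward* replicate 2 and -1.058 in *homie forward* replicate 3. After subtraction of the trans density from every bin the slope from 100 kb to 1 Mb was -1.33 in all *homie forward* libraries, -1.33, -1.31 and -1.31 in *λ DNA*, -1.23, -1.31 and -1.31 in *nhomie reverse*, and -1.34 in both *nhomie forward* libraries, which remained the steepest. From 1 to 10 Mb the subtracted slope was -0.69, -0.73 and -0.73 in *homie forward*, -0.70, -0.71 and -0.71 in *λ DNA*, -0.64, -0.67 and -0.67 in *nhomie reverse*, and -0.71 in both *nhomie forward* libraries. Here replicates 2 and 3 of *homie forward* and of *λ DNA* were steeper than *nhomie forward*, and the mean differences from *nhomie forward* turned to -0.00297 for *homie forward* and -0.00125 for *λ DNA*, from 0.04 for both without subtraction.

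**Figure D5:**
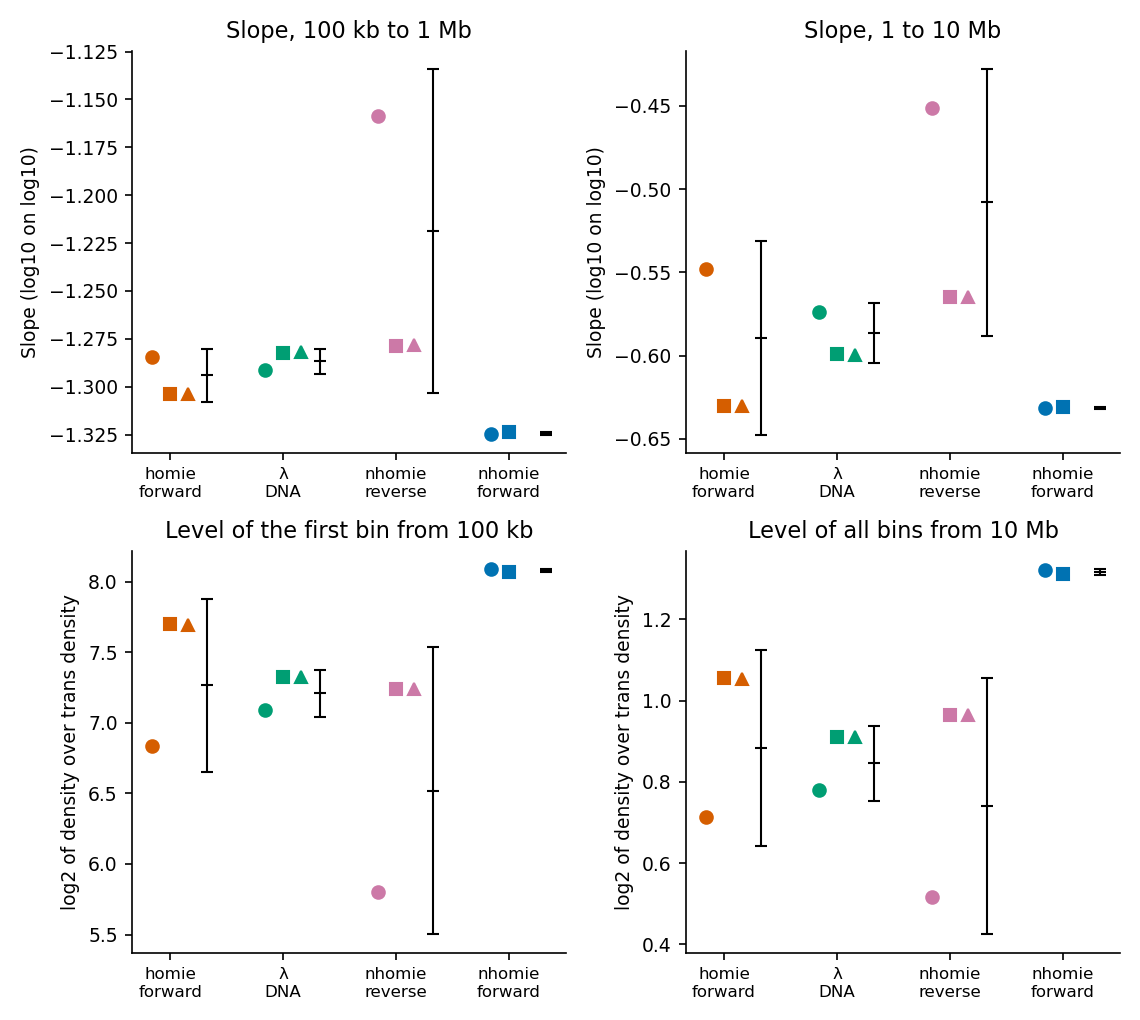
Slopes of log10 density on log10 separation (top) and log2 of the density over the trans density (bottom), by genotype, on axes that do not start at 0. Circles, squares and triangles are replicates 1, 2 and 3 and black bars the mean ± SD (n = 2, replicates 2 and 3 as 1 sample); *nhomie forward* has the steepest slope from 100 kb to 1 Mb (-1.32) and the highest levels (8.08 and 1.32 on average).

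With 8 samples the smallest p that this test can give is 0.00952, which becomes 0.0571 after adjustment over 6 measures where 1 measure differs alone, so that such a measure could not pass 0.05. Any 2 given samples stay together in 14.3% of assignments. Pairs of genotypes were not tested, because 2 samples against 2 cannot give an exact p below 0.333.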

How the data were processed

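The authors aligned MicroC reads with BWA-MEM to genomes edited from BDGP Release 6 (dm6) and used Pairtools to parse, sort and de-duplicate the pairs, leaving out pairs with 1 unmapped end or low mapping quality. Versions are not given in the sources used here. For each library the authors deposited a list of 222 Pairtools statistics of other, mixed units: raw pair counts, fractions and sequence lengths. The counts were not normalized, and the deposited fractions were not used.

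From the counts, shares, densities, slopes and levels were computed in Python (3.11.15) with scipy (1.17.1) and numpy (2.4.6), and drawn in matplotlib (3.10.9). Allowed position pairs were summed over all nuclear sequences. The trans density used 8 pairs of large arms (2L, 2R, 3L, 3R and X). Slopes were least squares fits over geometric bin middles. For each of 6 measures the 4 genotypes were compared by their F ratio under all assignments of samples to genotypes (exact permutation test, two-sided), with Benjamini-Hochberg adjustment and a threshold of 0.05, and the scripts were tested on simulated data. Values of every library are given for the sums, for the first bin of each decade and for the last bins, and ranges for the others. Members, measures and alternatives were chosen with earlier results of these data known. Alternatives were other denominators, scales, limits and bins, all libraries singly, a replicate block, and each replicate left out.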

Additional observations from a re-analysis of the deposited data

How the results depend on the processing

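Not all alternatives could move the result. Leaving out replicate 2 or 3 where these were averaged left p the same or nearly so, and counts of alternatives therefore do not measure stability. The side of the threshold, by exact p without adjustment, was kept in 102 of 117 alternatives. Of the other 15, 9 concerned the slope from 100 kb to 1 Mb (main p = 0.0190), for which the exact p was 0.0647 with 11 libraries, 0.143 without the first bin, and 0.0190–0.181 when 1 replicate was left out. The cause was not tested. Chosen after the data were seen, subtraction of contacts at the trans density gave an exact p of 0.0381 for the share at 1 Mb or more (main 0.333). Of the 10 far bins, 4 were called without adjustment with 11 libraries (6 of all 18 bins from 1 kb, 33.3%), against 1 with 8 samples (1 of 18). The genotypes share replicate numbers. Deviations of same-numbered libraries correlated at 0.869 to 0.977 in all 9 pairs without *nhomie forward* and at -0.873 to -0.825 in all 6 pairs with it. Differently numbered pairs ranged from -0.977 to 0.977, with 15 of 30 correlated over 0.1, against 9 of 15 of the same number. Since replicates 2 and 3 of a genotype were nearly alike, these pairs are not independent. The numbers thus did not pair the genotypes with the control. Among the other 3 genotypes, libraries of the same number deviated alike, and replicate 1 stood apart in each. What the libraries of one number shared is not stated in the sources used here. Of 11 libraries, 6 correlated best with their own number. This count cannot decide on pairing, because replicates 2 and 3 of a genotype could hardly be told apart. With the number as a replicate block, the slope from 100 kb to 1 Mb had an exact p of 0.0833 with 8 samples. With the block and 11 libraries the exact p was 0.0278 for the far share, 0.0486 for the share at 1 Mb or more, 0.0625 for the slope from 100 kb to 1 Mb, 0.0260 for the slope from 1 to 10 Mb, 0.0174 for the level at 100 kb and 0.0243 for the level beyond 10 Mb, on the other side of 0.05 from the test of 8 samples without the block for all 6 measures, but replicates 2 and 3 then count as separate samples. Differences from *nhomie forward* changed sign in 8 of 273 alternatives, none of them for *nhomie reverse*. The 273 include settings that could not change a difference, such as leaving out a library of a genotype outside the comparison. Their number therefore does not measure stability. Depth limits only the last bin, with 22–104 contacts.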
